A study of Mus musculus with 20 samples.

Results

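CD45+ leukocytes pulled from pancreatic tumours of wild-type mice were compared with bulk tumour from wild-type mice, gene by gene. The members were the 5 sorted and the 5 bulk libraries whose titles name wild-type hosts, 10 of the 20 libraries in the series, and the 17185 of 46983 genes in the raw count table that had enough counts in these 10 libraries to be tested. Both groups came from tumours that cultured KPC cells, a mouse pancreatic cancer line, had formed 2 weeks after injection into the pancreas of C57BL/6 mice, and no drug or other treatment was given to either. The sorted libraries were made from single-cell suspensions of tumours by positive selection on magnetic beads against CD45, and the bulk libraries were labelled only as tumour. The labels name 5 wild-type hosts but do not tie a library to a mouse, and the spread behind each p-value is that among the libraries, part of which may be technical. They also do not say whether a sorted and a bulk library share a tumour, or whether the bulk material was dissociated. The other 10 libraries, 5 sorted and 5 bulk from IL33-/- hosts, were used only to ask whether the difference depended on the host.

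CD45 is a receptor phosphatase, encoded by Ptprc, that sits on the surface of nearly all leukocytes and not on epithelial, fibroblast or endothelial cells. A pancreatic tumour mixes malignant epithelium with a dense fibroblast stroma, vessels and an infiltrate rich in macrophages and neutrophils, with fewer lymphocytes. Setting the CD45+ fraction against the whole tumour therefore sorts transcripts by compartment: a gene used by leukocytes alone gains by about the factor to which leukocytes were enriched, and a gene used by the tumour or its stroma is depleted. In such bulk RNA, fewer cells of a type and less RNA per cell cannot be told apart.

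Values are CPM, the counts of a gene relative to the size of its library, on library sizes scaled by the trimmed mean of M-values, and log2 fold changes are sorted leukocytes over bulk tumour with their standard error (SE). Adjusted p-values are from edgeR's quasi-likelihood test over all 17185 genes, with a threshold of 0.05. The sorted libraries held 55055634 to 69205119 counts in genes and the bulk libraries 59793579 to 66778507. On these unscaled sizes, 3 counts correspond to 0.0433 to 0.0545 CPM in sorted and 0.0449 to 0.0502 CPM in bulk libraries. On the scaled sizes used for all other CPM values, the floor of 3 counts lies higher in each sorted library and lower in each bulk library. The number of genes with a count detected was 21158 to 22319 in sorted leukocytes and 21758 to 22468 in bulk tumour, a difference in means of −324 (two-sided exact permutation test, p = 0.190). The 100 most abundant genes took 27.8 to 32.3% of counts in sorted leukocytes and 19.3 to 21.1% in bulk tumour, higher in 5 of 5 sorted libraries (exact permutation p = 0.00794, the smallest that 5 against 5 libraries can give, and 0.0159 adjusted over these 2 measures). The first principal component of log2 CPM held 78.3% of the variance and separated the groups. Bulk replicate 5 stood apart from the other bulk libraries on the second component and carried pancreatic and muscle transcripts described below. Results that rest on it are also given without it.

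Of the genes tested, 5309 (30.9%) were higher and 6000 (34.9%) lower in sorted leukocytes, 11309 (65.8%) in all. By a test against a 2-fold change, 2474 genes (14.4%) were higher and 2633 (15.3%) lower. The 5 sorted libraries lay wholly above the 5 bulk libraries in 4386 genes (25.5%) and wholly below in 4499 (26.2%). The median log2 fold change over all genes was −0.05, with a range of −7.22 to +9.49. Counts for the gene lists below are to be read against these shares.

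The selected surface marker was the first check. Ptprc (ENSMUSG00000026395.16, chromosome 1, 138062861 to 138175708, minus strand, mm10) stood at 849, 667, 743, 576 and 627 CPM in the sorted libraries and at 62.2, 73.7, 84.6, 54.3 and 85.3 CPM in the bulk libraries. Every sorted library was above every bulk library, and the log2 fold change was +3.27 (SE 0.17, adjusted p = 1.61e-07). The 16 other genes shared by most leukocytes did the same: all 17 of 17 listed genes were higher, none overlapped, and their log2 fold changes ran in a narrow band of +2.82 to +3.91 with a median of +3.35. Lcp1, the leukocyte actin bundler L-plastin, stood at 2309, 2022, 2408, 1650.3 and 2254 CPM in sorted leukocytes and 158, 189.6, 227, 147 and 317 CPM in bulk tumour. Laptm5, a lysosomal membrane protein of blood cells, ranged over 1722 to 2236 CPM in sorted leukocytes and 111 to 267 CPM in bulk tumour. Coro1a, the actin-binding coronin of leukocytes, ranged over 1025 to 1274 CPM in sorted leukocytes and 40.3 to 185 CPM in bulk tumour, and Itgb2, the β2 integrin chain, over 693 to 1176 and 61.9 to 167 CPM in the same order. Summed over the list, sorted leukocytes carried 13459.5, 11667, 13336, 9879.5 and 11923 CPM and bulk tumour 852, 839.8, 1447, 846 and 1842 CPM. Bulk replicates 3 and 5 thus held more leukocyte RNA than the other bulk libraries, at 12% and 15.3% of the sorted mean against 7.07%, 6.97% and 7.01% in bulk replicates 1, 2 and 4.

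The promoters of these genes are shown beside their values because the myeloid and lymphoid factor PU.1, encoded by Spi1, is known to drive leukocyte genes from short AGGAAGT sites close to the start. The RefSeq table (GRCm38.p6) holds a promoter of 250 bases before to 50 bases after the start for 11499 of the symbols tested, and AGGAAGT was searched on both strands. It was present in 249 of 1211 promoters (20.6%) of genes called higher with a log2 fold change of at least 2, in 96 of 1153 (8.33%) of genes called lower with a log2 fold change of at most −2, and in 1126 of 11499 (9.79%) of all. Within the tumour epithelium list it was present in 2 of 11 promoters (18.2%). Within the pan-leukocyte list it was present in 6 of 13 promoters (46.2%). The following are the 200 bases before the start for the 4 of these genes with a match in that window, written 5′ to 3′ on the gene's strand from the first start that RefSeq lists (Ptprc has 2), with each match in capitals (ACTTCCT is the same motif on the other strand). The gene coordinates given in the text are the GENCODE extents over all transcripts, and for Ptprc, Zfp36 and Cxcl2 these begin upstream of the RefSeq start, so that the stretches of Ptprc and Zfp36 lie inside the printed extents and that of Cxcl2 in part. A match is a description of the letters and was not tested as a site.
Ptprc (chr1:138175306-138175505, minus strand): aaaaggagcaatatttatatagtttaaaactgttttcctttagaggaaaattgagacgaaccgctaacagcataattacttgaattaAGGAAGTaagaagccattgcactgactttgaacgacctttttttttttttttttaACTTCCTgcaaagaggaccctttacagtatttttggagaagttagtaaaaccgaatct
Ptpn6 (chr6:124738710-124738909, minus strand): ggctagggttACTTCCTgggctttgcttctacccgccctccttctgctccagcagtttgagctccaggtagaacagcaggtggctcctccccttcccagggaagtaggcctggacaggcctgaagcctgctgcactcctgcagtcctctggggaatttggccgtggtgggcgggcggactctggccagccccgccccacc
Vav1 (chr17:57278900-57279099, plus strand): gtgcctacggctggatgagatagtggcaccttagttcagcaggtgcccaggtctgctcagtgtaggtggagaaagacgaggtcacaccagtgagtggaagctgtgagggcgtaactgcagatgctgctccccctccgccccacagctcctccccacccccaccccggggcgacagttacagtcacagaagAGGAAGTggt
Was (chrX:8090492-8090691, minus strand): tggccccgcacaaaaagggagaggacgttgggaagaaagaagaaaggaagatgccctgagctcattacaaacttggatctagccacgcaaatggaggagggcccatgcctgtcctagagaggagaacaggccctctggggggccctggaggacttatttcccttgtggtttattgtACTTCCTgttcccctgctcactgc
Spi1 itself stood at 344, 342, 351, 290.5 and 298 CPM in sorted leukocytes and 19.4, 13.7, 29, 23.2 and 43.4 CPM in bulk tumour, with no overlap (log2 +3.66, SE 0.28, adjusted p = 1.45e-06). Of the factors that specify leukocyte lineages, 12 of 14 were higher and none lower. Ikzf1, the lymphoid factor Ikaros, had a log2 fold change of +3.27 and Cebpb, a factor of macrophages and neutrophils, of +3.91. Runx1 (log2 +0.24, adjusted p = 0.0758) and Bcl6 (log2 +0.16, adjusted p = 0.256), both also used outside leukocytes, did not pass. Without bulk replicate 4, Runx1 passed (log2 +0.27, adjusted p = 0.0493).

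Macrophage genes rose together. All 14 of 14 macrophage genes were higher, with a median log2 fold change of +3.37, and their sum was 25402 to 28041 CPM in sorted leukocytes and 1606 to 4634 CPM in bulk tumour. Apoe, the lipid carrier made by tissue macrophages, stood at 9014, 10401, 6366, 9771 and 7773 CPM in sorted leukocytes and 716, 483, 1246, 978 and 1495 CPM in bulk tumour. Lyz2, lysozyme, ranged over 6156 to 8599.8 CPM in sorted leukocytes and 409 to 1205 CPM in bulk tumour, and the complement subunits C1qa and C1qb had log2 fold changes of +3.37 and +3.37. Adgre1, which encodes F4/80, stood at 359.8, 283, 453, 258 and 306 CPM in sorted leukocytes and 30.8, 35, 40.7, 28.3 and 37.3 CPM in bulk tumour, so that the groups were far apart (log2 +3.27, SE 0.18, adjusted p = 2.2e-07). Monocyte genes had a similar median log2 fold change of +3.54, and some of them went further. Ly6c2, the surface protein of inflammatory monocytes, was at 120.4, 139.7, 294, 89.7 and 65.9 CPM in sorted leukocytes and 1.09, 1.5, 4.55, 1.08 and 6.79 CPM in bulk tumour (log2 +5.56, adjusted p = 6.54e-05). Ccr2, the receptor that calls monocytes into tissue, had a log2 fold change of +4.36 (SE 0.28, adjusted p = 4.9e-07). In all, 6 of 7 monocyte genes were higher. Plac8 was the exception, at 559.7 to 622 CPM in sorted leukocytes and 789 to 1183 CPM in bulk tumour (log2 −0.74, adjusted p = 0.000155), lower in 5 of 5 sorted libraries. It is also expressed by pancreatic cancer cells.

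Neutrophil genes rose in 11 of 13 cases, with a median log2 fold change of +4.09. S100a9, an alarmin subunit stored in neutrophils, stood at 2302, 3195, 1327, 1117 and 892 CPM in sorted leukocytes and 73.6, 97, 93.1, 67.8 and 112 CPM in bulk tumour (log2 +4.31, adjusted p = 2.77e-06). Csf3r, the G-CSF receptor (chromosome 4, 126024550 to 126044440, plus strand, mm10), stood at 655, 813, 366, 539.8 and 588 CPM in sorted leukocytes and 44.9, 44.4, 41, 44.2 and 50.5 CPM in bulk tumour (log2 +3.72, SE 0.20, adjusted p = 1.82e-07). The granule genes Ngp and Camp varied among the sorted libraries: Ngp ranged over 150.1 to 1308 CPM and Camp over 49 to 521 CPM in sorted leukocytes, against 7.33 to 41.5 and 1.49 to 15.8 CPM in bulk tumour. Ltf, lactoferrin, and Lcn2, the iron-sequestering lipocalin, are granule proteins that epithelia also make, and neither passed. Ltf was at 112 to 856 CPM in sorted leukocytes and 249 to 378 CPM in bulk tumour (log2 +0.75, adjusted p = 0.151), and Lcn2 at 115 to 509 CPM in sorted leukocytes and 104 to 294 CPM in bulk tumour (log2 +1.02, adjusted p = 0.0619). Ltf passed without sorted replicate 5 (log2 +1.0, adjusted p = 0.0115), and Lcn2 passed without bulk replicate 5, sorted replicate 4 or sorted replicate 5 (log2 +1.35, +1.2 and +1.23).

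Of the eosinophil genes, 4 of 8 were higher. Siglecf, their sialic-acid-binding receptor, was at 115, 94.6, 34.7, 56.4 and 79.2 CPM in sorted leukocytes and 8.84, 7.96, 5.73, 8.02 and 4.46 CPM in bulk tumour (log2 +3.44, adjusted p = 5.63e-06). Il5ra, the IL-5 receptor chain of eosinophils, went the other way at 4.87 to 14.6 CPM in sorted leukocytes and 16.2 to 41.6 CPM in bulk tumour (log2 −1.83, adjusted p = 0.00052). The defining granule gene Epx was near the floor, at 0.0621 to 2.27 CPM in sorted leukocytes and 0.0430 to 1.06 CPM in bulk tumour, and did not pass. Mast cell and basophil genes were higher in 7 of 9 cases, among them Tpsb2, a mast cell tryptase (log2 +3.75, adjusted p = 0.000821), and Cpa3, the mast cell carboxypeptidase (log2 +3.52, adjusted p = 9.84e-05). The Tpsb2 value was +4.50 without bulk replicate 3. Mcpt8, a basophil protease, was lower (log2 −1.26, adjusted p = 0.000517).

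For type 1 dendritic cells, which cross-present antigen, 5 of 7 genes were higher. Clec9a, their receptor for dead cells, stood at 15.9, 18.7, 16.9, 19.6 and 17 CPM in sorted leukocytes and 2.68, 3.02, 3.31, 2.36 and 2.57 CPM in bulk tumour (log2 +2.66, SE 0.14, adjusted p = 1.55e-07). Cadm1 (log2 −1.32, adjusted p = 0.000154) and Tlr3 (log2 −1.34, adjusted p = 4.09e-05), an adhesion molecule and a receptor for double-stranded RNA that epithelium and stroma also express, were lower. All 5 type 2 genes were higher, and Cd209a reached 15.6 to 27.4 CPM in sorted leukocytes, against 0.219 to 1.11 CPM in bulk tumour (log2 +5.32, adjusted p = 3.6e-06). Of the genes of mature, migrating dendritic cells, Ccr7 (log2 +4.43) and Ccl22 (log2 +3.34) rose, while Fscn1, an actin bundler that cancer cells also use, did not pass (log2 +0.15, adjusted p = 0.649), and Cacnb3, a calcium channel subunit, was lower (log2 −1.63, adjusted p = 3.73e-06). For plasmacytoid dendritic cells, Siglech was higher (log2 +4.23, adjusted p = 2.08e-05), with 3 of 7 genes called higher, and 6 of 7 without bulk replicate 5. Summed over this list, bulk replicate 5 held 463 CPM, the other bulk libraries 113 to 190 CPM and the sorted libraries 292 to 414 CPM. Acinar and muscle RNA, given below, also differed between these libraries. Their part in the count of 6 was not tested, so it is not read as a larger plasmacytoid difference.

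T cell genes rose in 16 of 17 cases with a median log2 fold change of +2.93. Cd3e, a signalling chain of the T cell receptor, stood at 98.6, 66.9, 60.9, 48.2 and 102 CPM in sorted leukocytes and 6.62, 6.8, 13, 6.76 and 16.1 CPM in bulk tumour (log2 +2.93, SE 0.33, adjusted p = 1.56e-05). Cd8a, the coreceptor of cytotoxic cells, had a log2 fold change of +2.55 and Cd4, that of helper cells, of +3.25. Tcf7, a factor of naive and memory T cells that was on the same list, stood at 21 to 45.1 CPM in sorted leukocytes and 27.3 to 28.5 CPM in bulk tumour and did not pass (log2 +0.19, adjusted p = 0.381). Foxp3, the factor of regulatory T cells, stood at 15.1, 11, 5.67, 9.36 and 15.3 CPM in sorted leukocytes and 0.52, 0.716, 2.23, 0.713 and 1.4 CPM in bulk tumour (log2 +3.33, adjusted p = 5.3e-05), and 5 of 6 genes of that list were higher. Ctla4, a brake on T cell activation, had the largest fold change of these, at 32.2 to 84.3 CPM in sorted leukocytes and 0.507 to 4.68 CPM in bulk tumour (log2 +5.25, adjusted p = 0.00012, and +6.18 without bulk replicate 5). Natural killer and cytotoxic genes were higher in 9 of 10 cases. Gzmb, the granule protease of killer cells, overlapped between groups, at 181, 50.2, 297, 37 and 249 CPM in sorted leukocytes and 5.41, 5.63, 21.4, 4.62 and 82.2 CPM in bulk tumour, although it passed (log2 +2.77, adjusted p = 0.0305). The Gzmb call was lost in 6 of 10 fits that left out 1 library (bulk replicate 1, 2, 3 or 4, or sorted replicate 1 or 5, adjusted p = 0.0545 to 0.0635), and the value was +4.09 without bulk replicate 5.

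Group 2 innate lymphoid cells respond to IL-33 through ST2, the product of Il1rl1, and the series as a whole is titled for them. Il1rl1 (ENSMUSG00000026069.15, chromosome 1, 40429570 to 40465415, plus strand, mm10) was at 13.1, 6.92, 6.42, 8.41 and 17.7 CPM in sorted leukocytes and 0.598, 0.573, 9.37, 0.685 and 2.35 CPM in bulk tumour. Bulk replicate 3 lay within the sorted range and the other bulk libraries below it, and the log2 fold change of +1.95 (SE 0.79) only just passed (adjusted p = 0.0494). It passed without bulk replicate 3 (log2 +3.30, adjusted p = 0.000466) and without sorted replicate 3, and failed in the other 8 of 10 fits that left out 1 library (adjusted p = 0.0580 to 0.103). Il13, the type 2 effector cytokine, was at 4.34, 1.78, 1.93, 1.3 and 7.83 CPM in sorted leukocytes and 0.0910, 0.0716, 0.214, 0.11 and 0.305 CPM in bulk tumour, with no overlap (log2 +4.41, adjusted p = 8.34e-05). Gata3, the factor these cells share with type 2 helper T cells, was higher (log2 +1.5, adjusted p = 0.00949), as was Klrg1, a lectin receptor of activated lymphoid cells (log2 +3.67, adjusted p = 7.46e-05, and +4.28 without bulk replicate 5). Il5 was near the floor, at 0.121 to 1.72 CPM in sorted leukocytes and 0 to 0.178 CPM in bulk tumour. Areg, an epidermal growth factor family ligand that these cells release and epithelium also makes, stood at 6.44 to 11.5 CPM in sorted leukocytes and 7.27 to 11.2 CPM in bulk tumour and did not pass (log2 −0.07, adjusted p = 0.739). In all, 7 of 8 listed genes were higher, and most genes of this list are also used by other leukocytes.

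B lineage genes rose and varied widely among bulk libraries. All 10 of 10 B cell genes were higher, with a median log2 fold change of +4.05. Cd79a, a signalling chain of the B cell receptor, stood at 152, 144, 190.4, 93.7 and 71 CPM in sorted leukocytes. In bulk tumour it stood at 0.468, 0.387, 14.6, 0.672 and 8.92 CPM, so that bulk replicates 3 and 5 held most of the bulk signal (log2 +4.69, SE 1.10, adjusted p = 0.00367). Summed over the list, bulk replicates 3 and 5 had 77.9 and 57.8 CPM and bulk replicates 1, 2 and 4 had 15.4, 16.1 and 16.2 CPM, while the sorted libraries had 282 to 785 CPM. Without bulk replicates 3 and 5 the median log2 fold change of the list was +7.04, so the size of the B cell difference depends on those libraries. For Cd79a alone it was +5.59 without bulk replicate 3. Jchain, which joins secreted immunoglobulin A and M, stood at 739, 2096, 3348, 1882 and 366 CPM in sorted leukocytes and 5.13, 5.93, 33.2, 4.91 and 71.7 CPM in bulk tumour (log2 +6.12, adjusted p = 0.000706). Mzb1, a chaperone of antibody secretion, had a log2 fold change of +5.93 and Irf4, the factor of activated B and plasma cells, of +4.91. Without bulk replicate 5, Jchain was at +7.04 and Mzb1 at +7.18. Immunoglobulin segments took 1.1 to 7.17% of counts in sorted leukocytes and 0.0178 to 0.211% in bulk tumour. Sdc1, which encodes the plasma cell antigen CD138 and is also a syndecan of epithelium, was lower, at 122 to 321 CPM in sorted leukocytes and 719 to 979 CPM in bulk tumour (log2 −1.87, adjusted p = 2.79e-05).

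**Figure D1:**
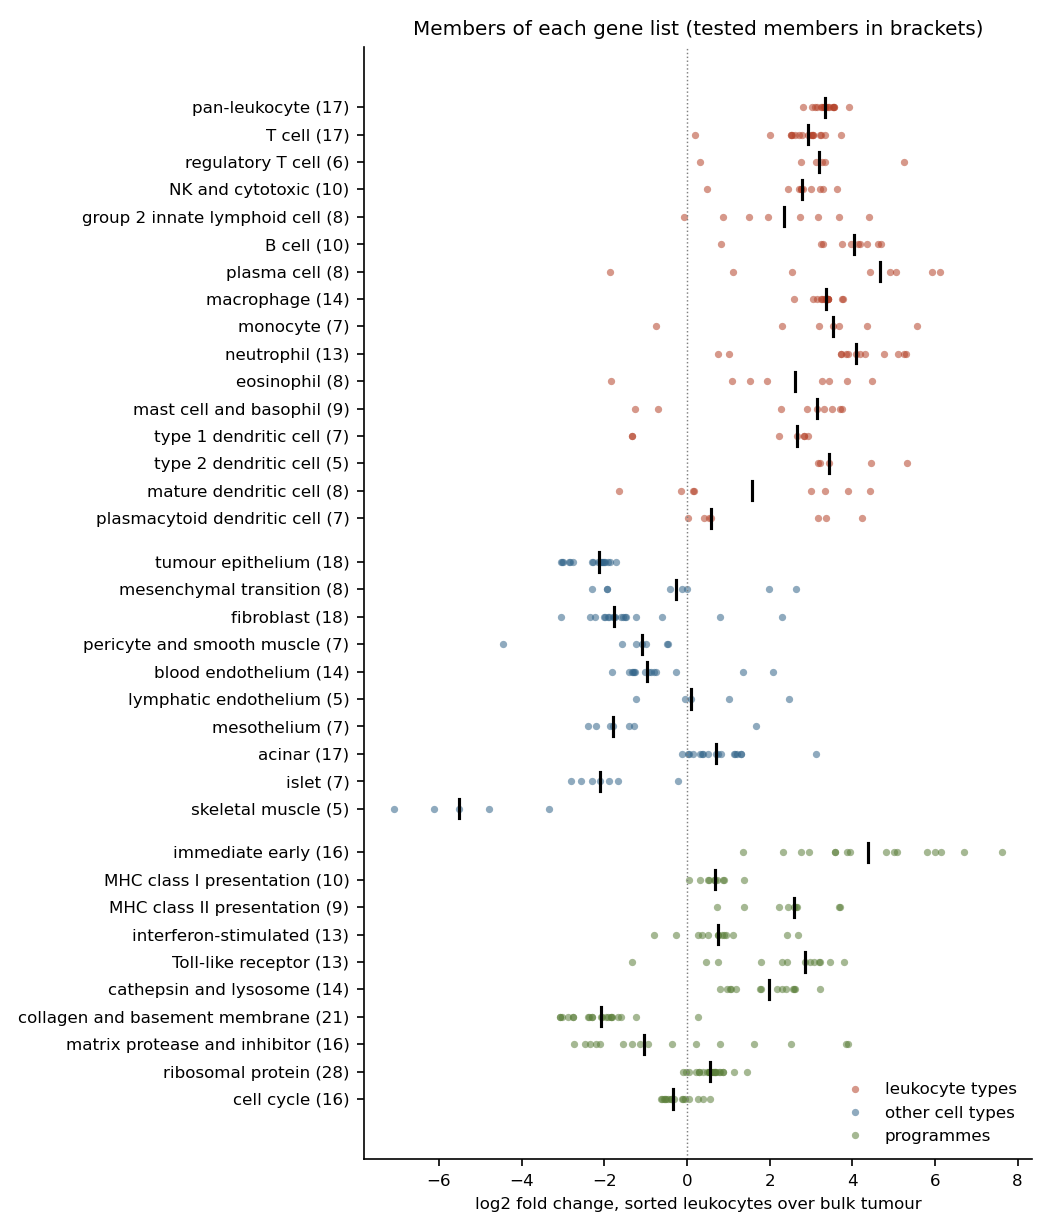
Log2 fold change of sorted leukocytes over bulk tumour (x axis) for each tested member of 36 gene lists (rows), with points for genes and a black bar at the list's median. The pan-leukocyte genes form a tight column between +2.82 and +3.91, tumour epithelium genes lie to the left of 0, most acinar genes lie between −0.12 and +1.31, and immediate early genes reach +7.61.

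The tumour and its stroma were on the other side. Of the epithelial genes that mark the KPC tumour cells, 16 of 18 were lower and none higher, with a median log2 fold change of −2.12. Krt8 (chromosome 15, 101996698 to 102004482, minus strand, mm10), a simple-epithelium keratin, stood at 256, 516, 458, 670.1 and 635 CPM in sorted leukocytes and 2129, 1673, 2017, 2436 and 1931 CPM in bulk tumour (log2 −2.01, SE 0.23, adjusted p = 2.11e-05). Cdh1, E-cadherin, stood at 164 to 316 CPM in sorted leukocytes and 812 to 1346 CPM in bulk tumour (log2 −2.28), and Krt18 and Krt19 had log2 fold changes of −2.08 and −1.99. Ehf and Grhl2, factors of epithelial identity, had log2 fold changes of −3.02 and −2.84, the last of them −2.01 without bulk replicate 5 and −3.49 without sorted replicate 3. These genes were depleted, not absent: summed over the list, sorted leukocytes carried 1131, 2108, 1957, 2922 and 2728 CPM and bulk tumour 10454, 9058, 8761, 11121 and 8843 CPM. Sorted replicate 1 held the least epithelial RNA. Factors of epithelial or stromal identity were lower in 13 of 15 cases, among them the Hippo pathway coactivators Yap1 (log2 −2.74, adjusted p = 3.63e-06) and Wwtr1 (log2 −2.40, adjusted p = 6.28e-06) and their DNA-binding partner Tead1 (log2 −2.86, adjusted p = 5.43e-06).

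TEAD factors bind the core GGAATG, which was searched in the same promoters on both strands. It was present in 136 of 1211 promoters (11.2%) of genes called with a log2 fold change of at least 2, in 207 of 1153 (18%) of genes called at −2 or below, and in 1428 of 11499 (12.4%) of all. The tumour epithelium list had it in 3 of 11 promoters (27.3%). The promoters of Cldn7, a tight junction claudin, and Muc1, a mucin of ductal cells, hold it within the 200 bases before the start, shown with the match in capitals. The Cldn7 stretch also holds AGGAAGT, left in lower case.
Cldn7 (chr11:69964579-69964778, plus strand): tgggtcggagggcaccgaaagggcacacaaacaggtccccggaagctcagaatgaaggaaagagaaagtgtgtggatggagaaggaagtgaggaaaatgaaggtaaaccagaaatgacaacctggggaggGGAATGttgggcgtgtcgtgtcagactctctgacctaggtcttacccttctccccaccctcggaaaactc
Muc1 (chr3:89228856-89229055, plus strand): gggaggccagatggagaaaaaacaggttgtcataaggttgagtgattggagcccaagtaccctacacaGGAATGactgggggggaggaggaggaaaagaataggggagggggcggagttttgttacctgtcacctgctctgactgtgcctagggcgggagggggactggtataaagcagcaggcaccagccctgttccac
Muc1 stood at 64.8, 144, 94.8, 209 and 148 CPM in sorted leukocytes and 1100.3, 1069, 707, 1094 and 457 CPM in bulk tumour, a wide separation (log2 −2.75, adjusted p = 3.51e-05). Cldn7 overlapped, at 2.78 to 24.9 CPM in sorted leukocytes and 22.1 to 138 CPM in bulk tumour (log2 −2.03, adjusted p = 0.0251). The Cldn7 call was lost without bulk replicate 5 (log2 −1.26, adjusted p = 0.0503) and without sorted replicate 5 (log2 −1.83, adjusted p = 0.0526). The AP-1 motif TGANTCA was found in 103 of 1211 promoters (8.51%) of the higher genes, 111 of 1153 (9.63%) of the lower genes and 651 of 11499 (5.66%) of all. The interferon response core (GAAA, any 2 bases, GAAA) was found in 5.04%, 2.43% and 3.17% of the same sets, and the E-box CACGTG in 6.69%, 5.64% and 9.53%.

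Fibroblast genes were lower in 14 of 18 cases, with a median log2 fold change of −1.75. Col1a2, a chain of fibrillar collagen, stood at 85.4, 109, 137, 181 and 160.0 CPM in sorted leukocytes and 366, 304, 583, 396 and 593 CPM in bulk tumour (log2 −1.74, adjusted p = 9e-05), and Sparc, a collagen-binding matrix protein, had a log2 fold change of −1.98. Thy1 and Mmp2 were the members that rose. Thy1, which T cells carry as well as fibroblasts, was at 124 to 275 CPM in sorted leukocytes and 22 to 89 CPM in bulk tumour (log2 +2.31, adjusted p = 0.000479). Mmp2, a gelatinase, was at 69.1 to 94.9 CPM in sorted leukocytes and 36.8 to 77.8 CPM in bulk tumour (log2 +0.81, adjusted p = 0.00598). Collagen, laminin and other basement membrane genes were lower in 20 of 21 cases and higher in none, with Col18a1 at a log2 fold change of −2.30 and Lama5 at −2.87. Blood endothelial genes were lower in 10 of 14 cases, such as Cdh5, the endothelial cadherin (log2 −1.30, adjusted p = 0.000125). Pecam1 (log2 +2.08, adjusted p = 0.000116), which platelets and myeloid cells also carry, and Eng (log2 +1.36, adjusted p = 0.000867), which macrophages also express, were higher. Mesothelial genes were lower in 5 of 7 cases. Genes of the mesenchymal transition were mixed: Vim was at 1361 to 2021 CPM in sorted leukocytes and 1539.6 to 1938 CPM in bulk tumour and did not pass (log2 −0.11, adjusted p = 0.452), Zeb2, which macrophages use, rose (log2 +2.64), and Snai2 fell (log2 −2.30).

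Genes of normal pancreas and muscle were spread unevenly over the libraries. Acinar enzymes summed to 4396, 994, 6767, 4614 and 3054 CPM in sorted leukocytes and to 47.2, 44.2, 49, 44.1 and 13659.5 CPM in bulk tumour. All sorted libraries thus held more acinar RNA than bulk replicates 1 to 4, and bulk replicate 5 held more than any sorted library. Of 17 acinar genes tested, 1 was called, Bhlha15, a secretory-cell factor that plasma cells also use (log2 +3.11, adjusted p = 0.00237, and +4.01 without bulk replicate 5). Ctrb1, chymotrypsinogen, stood at 813, 218, 1658, 957 and 688 CPM in sorted leukocytes and 2.92, 2.49, 7.2, 3.59 and 4702 CPM in bulk tumour (log2 −0.12, adjusted p = 0.96). Without bulk replicate 5 the median log2 fold change of the acinar list was +7.82, against +0.71 with it, and 17 of 17 acinar genes were called higher, Ctrb1 among them (log2 +7.70, adjusted p = 6e-06). Islet genes summed to 5.5 to 28.8 CPM in sorted leukocytes, and in bulk tumour to 136 and 329 CPM in replicates 3 and 5 and under 1 CPM in replicates 1, 2 and 4. Skeletal muscle genes summed to 3.41 to 7.81 CPM in sorted leukocytes and, in bulk tumour, to 1075 CPM in replicate 5 and 1.65 to 2.3 CPM in the other 4. The part of these tissues in the genes above was not tested. Without bulk replicate 5 the pan-leukocyte median log2 fold change was +3.55 and that of tumour epithelium −2.13.

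**Figure D2:**
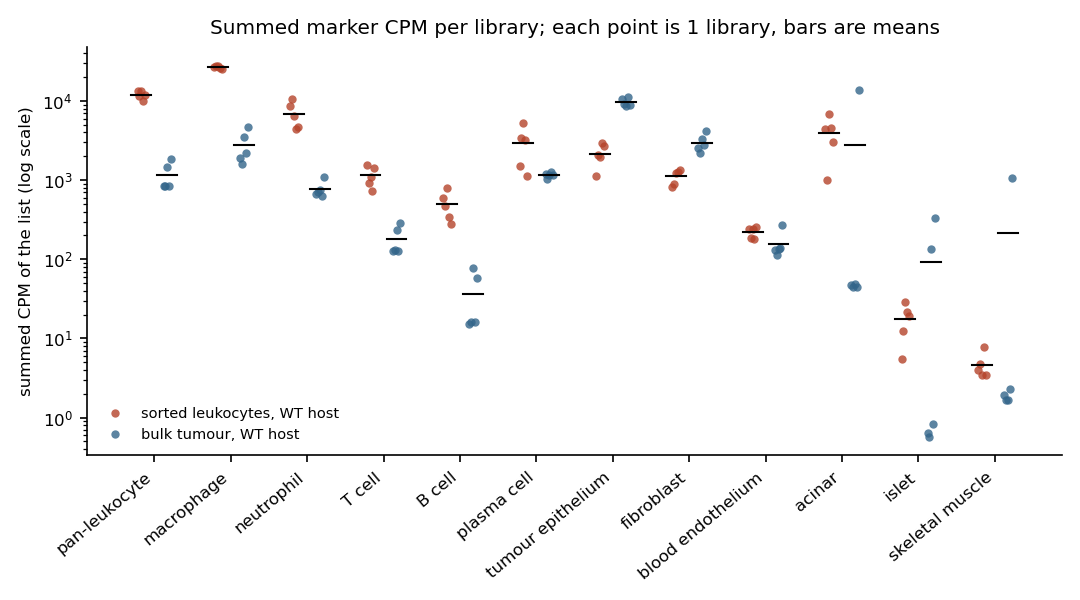
Summed CPM (y axis, log scale) of 12 marker lists in each library, with sorted leukocytes left of bulk tumour and a bar at each mean of 5 libraries. Leukocyte lists are higher in every sorted library except for plasma cell genes, whose list holds the epithelial Sdc1, while acinar, islet and muscle genes are high in bulk replicate 5.

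Many of the largest differences among named genes were in genes of acute activation, not of cell identity. The immediate early genes are switched on within minutes of a stimulus, and they encode AP-1 subunits, early growth response factors and the feedback regulators that end the response. All 16 of 16 were higher beyond 2-fold with no overlap, with a median log2 fold change of +4.38. Of these, 9 exceeded +3.91, the highest value of any pan-leukocyte gene. Fosb (ENSMUSG00000003545.2, chromosome 7, 19302696 to 19310051, minus strand, mm10), an AP-1 subunit, stood at 833, 566, 684, 769 and 919 CPM in sorted leukocytes and at 3.34, 2.85, 4.21, 4.2 and 4.65 CPM in bulk tumour. The lowest sorted library was more than 100-fold above the highest bulk library (log2 +7.61, SE 0.22, adjusted p = 5.74e-09). Fos (chromosome 12, 85473890 to 85477273, plus strand, mm10) stood at 2772, 2328, 2427, 2215 and 2339 CPM in sorted leukocytes and 33.9, 28.4, 30.7, 36.8 and 41.9 CPM in bulk tumour (log2 +6.14, SE 0.15, adjusted p = 1.86e-09). Zfp36 (chromosome 7, 28376784 to 28380253, minus strand, mm10), which encodes tristetraprolin, a protein that brings cytokine mRNAs to decay, stood at 5599, 4991, 3415, 4393 and 5484 CPM in sorted leukocytes and 36.5, 30.9, 49.7, 42.7 and 69.5 CPM in bulk tumour (log2 +6.70, SE 0.28, adjusted p = 6.33e-08). Nr4a1, an orphan nuclear receptor, had a log2 fold change of +6.00, Dusp1, a phosphatase that switches off MAP kinases, of +5.82, Btg2 of +5.09, Egr1 of +5.01 and Atf3 of +4.81. Junb and Jund were lower on the scale, at +3.88 and +2.31, and Klf6 had the smallest value of the list at +1.35.

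Inflammatory genes with short-lived mRNAs stood beside them among the 12 largest increases. This ranking took only genes that reached 20 CPM in sorted leukocytes and had no overlap between groups. It left out predicted genes, pseudogenes and receptor segments. Osm (chromosome 11, 4236420 to 4241026, plus strand, mm10), an IL-6 family cytokine of myeloid cells, stood at 692, 585, 476, 482 and 647 CPM in sorted leukocytes and 1.79, 1.69, 3.95, 1.52 and 8.68 CPM in bulk tumour (log2 +7.35, SE 0.58, adjusted p = 1.87e-06). Cxcl2 (chromosome 5, 90903871 to 90905938, plus strand, mm10), a neutrophil chemoattractant, stood at 1098, 837, 509, 668 and 947 CPM in sorted leukocytes and 3.7, 3.72, 6.76, 4.09 and 13.8 CPM in bulk tumour (log2 +6.98, SE 0.48, adjusted p = 7.77e-07). Il1b (chromosome 2, 129364570 to 129371139, minus strand, mm10), the pyrogenic cytokine of myeloid cells, stood at 4139, 3528, 2238, 3022 and 3998 CPM in sorted leukocytes and 39.5, 45.3, 42.3, 34.9 and 82.6 CPM in bulk tumour (log2 +6.11, SE 0.31, adjusted p = 1.52e-07). In each of these genes the groups were separated by more than an order of magnitude. Nfkbid, an atypical inhibitor protein of NF-κB, had a log2 fold change of +6.32, Ccrl2, a chemerin-binding receptor, of +6.43, and G0s2, a lipase inhibitor, of +7.30. Bulk replicate 5 had the highest bulk value of each of these genes, and without it the log2 fold change was +7.98 for Osm, +6.97 for Nfkbid and +8.34 for G0s2. Slpi, a secreted inhibitor of neutrophil elastase, varied widely among sorted libraries, at 993, 4114, 4792, 3055 and 505 CPM, against 17.3, 14.8, 48.5, 17 and 89.2 CPM in bulk tumour (log2 +6.17, adjusted p = 0.00014). Over the whole table, 366 genes were called above the highest pan-leukocyte value. They included 155 immunoglobulin and 2 T cell receptor segments and 105 named genes that reached 20 CPM in the higher group.

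The promoters of Zfp36 and Cxcl2 are shown as examples that hold a motif known from such responses. The CArG box, bound by serum response factor, was found in 1 of 13 promoters of the immediate early list and in 148 of 11499 (1.29%) of all, with 23 of 1211 (1.9%) among genes called at a log2 fold change of at least 2 and 20 of 1153 (1.73%) among those at −2 or below. A form of the NF-κB site (GGGA, any base, TTTCC) was found in 0 of 13 promoters of the immediate early list, in 54 of 11499 (0.47%) of all, and in 9 of 1211 (0.743%) and 8 of 1153 (0.694%) of the same higher and lower genes. These motifs were chosen after the values were seen, and the capitals mark the match.
Zfp36 (chr7:28379229-28379428, minus strand): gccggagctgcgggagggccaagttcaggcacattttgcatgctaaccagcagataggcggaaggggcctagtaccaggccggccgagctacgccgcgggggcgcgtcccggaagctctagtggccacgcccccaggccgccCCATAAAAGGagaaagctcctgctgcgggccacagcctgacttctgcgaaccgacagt
Cxcl2 (chr5:90903699-90903898, plus strand): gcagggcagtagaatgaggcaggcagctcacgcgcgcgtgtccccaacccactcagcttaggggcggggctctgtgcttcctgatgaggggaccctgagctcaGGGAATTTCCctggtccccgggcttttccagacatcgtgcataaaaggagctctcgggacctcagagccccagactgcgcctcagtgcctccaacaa
The sorted cells had passed through dissociation and bead selection, and the labels do not state the handling of the bulk material, so handling and cell composition cannot be told apart for these genes. Heat shock genes, which are also acutely inducible, were split. Hspa1a and Hspa1b, inducible HSP70 genes with near-identical sequences, had log2 fold changes of +5.73 and +3.49, and Hspa8, Dnajb1 and these made 4 of 11 higher, although Hspa8 (log2 +0.41) stood at −0.05 without scaling beyond library size. Hsp90ab1 (log2 −0.58) and Hspd1 (log2 −1.0) were lower, and Hsph1 (log2 −0.18, adjusted p = 0.412) and Hsp90aa1 (log2 +0.14, adjusted p = 0.465) did not pass.

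**Figure D3:**
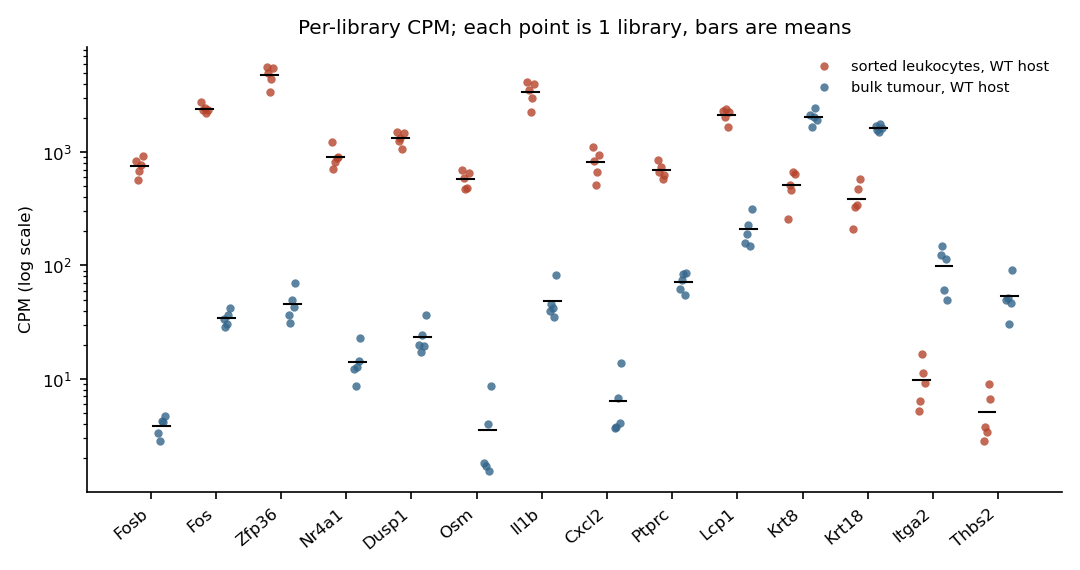
CPM (y axis, log scale) of 14 genes in each library, with sorted leukocytes left of bulk tumour, points for libraries and bars for means of 5. The 5 acute response genes and 3 cytokines on the left are separated by wider gaps than Ptprc and Lcp1, and the 4 genes on the right, of tumour and stroma, lie lower in sorted leukocytes.

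Ligands and receptors lay on both sides of the comparison. Of 55 cytokine and chemokine receptors, 38 were higher and 13 lower in sorted leukocytes, and of 59 ligands tested, 32 were higher and 15 lower. In several pairs the ligand was lower and its receptor higher in sorted leukocytes. Il33 (chromosome 19, 29925114 to 29960718, plus strand, mm10), the alarmin, stood at 5.52, 9.9, 20.3, 14.4 and 11.9 CPM in sorted leukocytes and 56.5, 67.7, 52.4, 54.9 and 56 CPM in bulk tumour (log2 −2.21, SE 0.28, adjusted p = 3.9e-05), in contrast to its receptor gene Il1rl1 above. Cxcl5 (chromosome 5, 90759360 to 90761624, plus strand, mm10), a neutrophil chemoattractant of epithelium, stood at 10.2, 20.1, 29.6, 28.9 and 30.1 CPM in sorted leukocytes and 156, 158, 136, 153 and 169 CPM in bulk tumour (log2 −2.70, SE 0.26, adjusted p = 6.5e-06). Its receptor gene Cxcr2 (chromosome 1, 74153989 to 74161246, plus strand, mm10) stood at 246, 269, 227, 184 and 232 CPM in sorted leukocytes and 18.8, 21.2, 14.3, 17.4 and 16.3 CPM in bulk tumour (log2 +3.72, SE 0.15, adjusted p = 6.33e-08). Cxcl1, another CXCR2 ligand, was higher, at 12.1 to 35.6 CPM in sorted leukocytes and 0.351 to 1.59 CPM in bulk tumour (log2 +4.96, adjusted p = 5.97e-06), as was Cxcl2 above. Both exceeded +3.91, the highest pan-leukocyte value, and handling and cell composition cannot be told apart for them.

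The same arrangement held for several other pairs. Cx3cl1, fractalkine, had a log2 fold change of −2.37 and its receptor Cx3cr1 of +2.50. Ccl20 was at −2.12 and Ccr6, its receptor on lymphocytes, at +3.61. Kitl, stem cell factor, was at −2.46 and Kit, its receptor on mast cells, at +2.29. Csf3, G-CSF, was at 0.445 to 0.936 CPM in sorted leukocytes and 1.12 to 6.85 CPM in bulk tumour (log2 −1.98, adjusted p = 0.0045, and −1.30 without bulk replicate 5), against +3.72 for Csf3r. Csf1r, the receptor that keeps macrophages alive, stood at 1512, 1323, 1961, 1233 and 1546 CPM in sorted leukocytes and 118, 109, 172, 119.6 and 196 CPM in bulk tumour (log2 +3.41). Its ligands parted: Il34 had a log2 fold change of −2.27 (adjusted p = 3.98e-05) and Csf1 of +1.97 (adjusted p = 2.33e-06). For Crlf2, the receptor chain for TSLP, the log2 fold change was +3.64 (adjusted p = 0.000338, and +4.30 without bulk replicate 5), and its ligand gene Tslp, at 0.112 to 0.67 CPM in sorted leukocytes and 0 to 0.127 CPM in bulk tumour, was too low to test.

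Other pairs ran in the reverse direction, with the ligand higher and the receptor lower in sorted leukocytes. The ligands Osm, Il1b and Il6 rose above +3.91, the highest pan-leukocyte value. For them, too, handling and cell composition cannot be told apart. Osmr, the oncostatin M receptor (chromosome 15, 6813577 to 6874969, minus strand, mm10), stood at 3.88, 6.74, 10.3, 8.8 and 9.57 CPM in sorted leukocytes and 55.3, 65.4, 57.7, 50.8 and 54.9 CPM in bulk tumour (log2 −2.85, SE 0.24, adjusted p = 2.28e-06), against the rise of Osm. Il1r1, the signalling IL-1 receptor, was at 7.17 to 13.7 CPM in sorted leukocytes and 53.3 to 70.6 CPM in bulk tumour (log2 −2.57, adjusted p = 1.13e-06). Il1r2, the decoy receptor of neutrophils, was at 215 to 472 CPM in sorted leukocytes and 17.2 to 25.8 CPM in bulk tumour (log2 +4.09, adjusted p = 2.38e-07), so that the signalling and decoy receptors lay on opposite sides. Met, Egfr, Erbb2 and Erbb3, growth factor receptors of epithelium, had log2 fold changes of −2.38, −2.66, −2.79 and −2.71. Ligand and receptor were both higher for Ccl2 (log2 +2.32), Ccl7 (log2 +3.60) and Ccr2, for Cxcl16 (log2 +1.52) and Cxcr6 (log2 +2.61), and for Il6 (log2 +4.47) and Il6ra (log2 +2.71). Csf2 (log2 +1.24, adjusted p = 0.0426) and Csf2rb (log2 +3.24) also rose, but the Csf2 call was lost in 8 of 10 fits that left out 1 library, each but sorted replicate 3 and bulk replicate 5 (adjusted p = 0.0541 to 0.106). Without bulk replicate 5 the log2 fold change was +1.91 for Csf2, +4.23 for Ccl7 and +5.43 for Il6. Cxcr4, a receptor that is itself quickly inducible, had a log2 fold change of +4.86, while its ligand gene Cxcl12 overlapped and did not pass (log2 +0.39, adjusted p = 0.518). Of the CXCR3 ligands, Cxcl9 was higher (log2 +0.72, adjusted p = 0.00483) and Cxcl10 did not pass (log2 +0.96, adjusted p = 0.0527), against +3.59 for Cxcr3. Cxcl10 passed without bulk replicate 5 (log2 +1.42, adjusted p = 0.00142) and without sorted replicate 2 (log2 +1.09, adjusted p = 0.0437). Lif did not pass (log2 −0.28, adjusted p = 0.35), and Lifr was slightly higher (log2 +0.29, adjusted p = 0.0382), a call that was lost in 7 of 10 fits that left out 1 library, each but sorted replicates 2 and 5 and bulk replicate 5 (adjusted p = 0.0536 to 0.122). Lifr stood at −0.17 without scaling beyond library size.

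**Figure D4:**
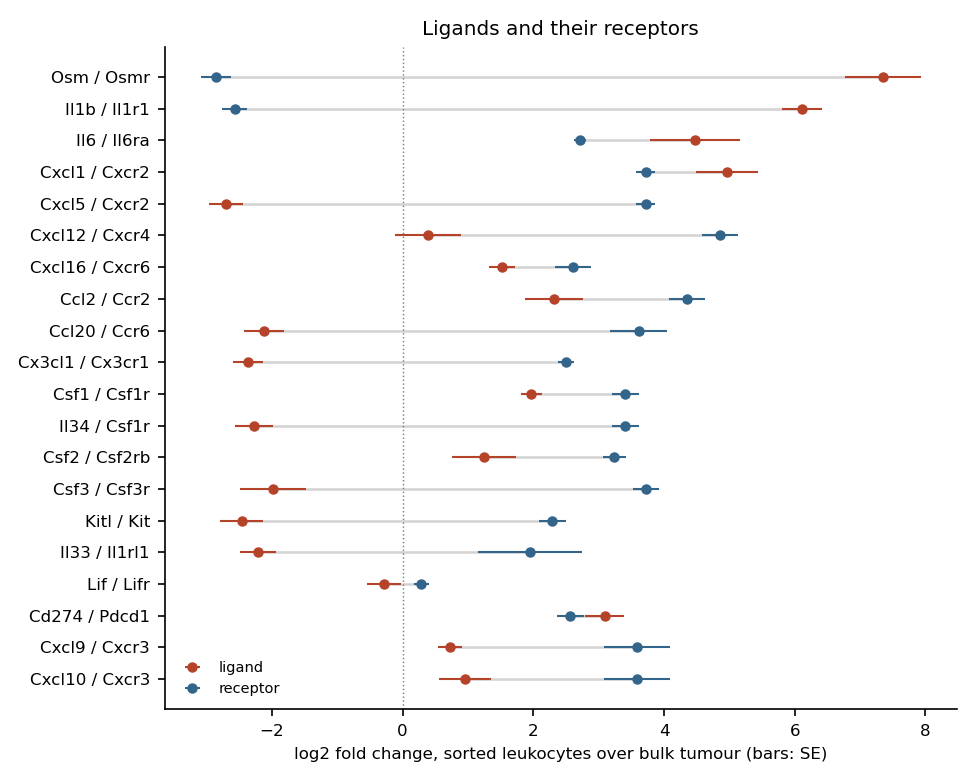
Log2 fold change of sorted leukocytes over bulk tumour (x axis, bars for SE) for 20 ligand and receptor pairs (rows), with ligands in red and receptors in blue. Osm and Il1b lie far to the right of their receptors, and Cxcl5, Ccl20, Cx3cl1, Il34, Csf3, Kitl and Il33 lie left of 0 with their receptors to the right.

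Checkpoint genes were mostly higher in sorted leukocytes. Pdcd1, which encodes PD-1, stood at 94.2, 59.3, 54.5, 50.4 and 75.5 CPM in sorted leukocytes and 10.2, 8.82, 12.5, 9.56 and 15.2 CPM in bulk tumour (log2 +2.57, SE 0.21, adjusted p = 2.32e-06). Cd274, which encodes its ligand PD-L1, stood at 357, 242, 335, 199.6 and 370.2 CPM in sorted leukocytes and 25.7, 28.3, 35.4, 24 and 63 CPM in bulk tumour (log2 +3.09, SE 0.30, adjusted p = 6.35e-06). Ligand and receptor were thus both wholly above bulk tumour. Of 13 checkpoint genes, 11 were higher and 2 lower. The lower ones were the B7 family members Cd276, at 13.6 to 27.2 CPM in sorted leukocytes and 86.9 to 96.8 CPM in bulk tumour (log2 −2.09, adjusted p = 2.66e-06), and Vtcn1, at 3.57 to 8.1 CPM in sorted leukocytes and 26.5 to 55.6 CPM in bulk tumour (log2 −2.88, adjusted p = 5.49e-06).

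Antigen presentation differed by class. MHC class II genes were higher in all 9 cases, with a median log2 fold change of +2.60, and Cd74, the invariant chain, stood at 18608, 19454, 21402, 18833 and 21062 CPM in sorted leukocytes and 3251, 2739, 4588, 3386 and 4168 CPM in bulk tumour. MHC class I genes were higher in 8 of 10 cases with a median of only +0.67. B2m, the light chain of class I, had a log2 fold change of +0.66 (adjusted p = 0.00071), and H2-K1 overlapped and did not pass (log2 +0.31, adjusted p = 0.108, and +0.42 with an adjusted p of 0.0239 without bulk replicate 5). The count of class I genes was 5 of 10 without any one of sorted replicates 3 and 5 and bulk replicates 1, 2 and 4. Interferon-stimulated genes were higher in 8 of 13 cases and lower in 1, Mx1 (log2 −0.80, adjusted p = 0.00162). Isg15 (log2 +2.43) and Rsad2 (log2 +2.70) had the largest values of that list. Toll-like receptors and their partners were higher in 12 of 13 cases, with Tlr3 the exception given above.

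Where gene families are divided between compartments, the members moved apart. The phagocyte NADPH oxidase subunits Cybb (log2 +2.66), Cyba (log2 +1.96) and Ncf1 (log2 +3.45) were higher, and the epithelial oxidase Duox2 (log2 −3.18, adjusted p = 2.13e-05) and its maturation factor Duoxa2 (log2 −2.06, adjusted p = 6.94e-05) were lower. Among matrix proteases, the myeloid enzymes Mmp9 (log2 +3.89) and Mmp12 (log2 +2.53) rose, Mmp7 of epithelium fell (log2 −2.19, adjusted p = 0.000414), and Mmp14 did not pass (log2 +0.21, adjusted p = 0.187). Among complement genes, C1qa and the properdin gene Cfp (log2 +3.70) rose, Cfi (log2 −2.69) fell, and C3 overlapped (log2 +0.13, adjusted p = 0.74). All 14 cathepsin and lysosome genes were higher, among them Ctsb (log2 +2.18) and Ctss (log2 +3.21).

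Paralog pairs were set side by side. In 22 pairs fixed by name, of a gene listed as leukocyte-restricted with its broadly expressed relative, all 22 leukocyte members were higher, while the broad members were higher in 6 and lower in 14. The leukocyte members were chosen for that use. Several of them, such as Rac2, Lcp1 and Fermt3, are also in the pan-leukocyte list, so their rise is not a separate result. The leukocyte member had the higher log2 fold change in 22 of 22 pairs, by a median of 3.52 (range 0.290 to 5.89). Fermt3, the kindlin of blood cells, stood at 335, 297, 369, 261 and 277 CPM in sorted leukocytes and 19.99, 12.6, 35.9, 21.9 and 51.7 CPM in bulk tumour (log2 +3.44). Its relative Fermt2 stood at 3.49, 2.95, 4.75, 5.24 and 5.94 CPM in sorted leukocytes and 23.6, 29.4, 23.5, 21.3 and 25.3 CPM in bulk tumour (log2 −2.46), in the opposite direction and with no overlap. Nckap1l, the haematopoietic subunit of the WAVE actin regulator, had a log2 fold change of +3.12 and Nckap1 of −2.76. The actin regulators Hcls1 and Cttn were at +3.35 and −2.38, Lcp1 and Pls3 at +3.36 and −2.26, and Was and Wasl at +3.41 and −2.04. The GTPases were closer, with Rac2 at +3.56 and Rac1 at +0.34, a value that was −0.14 without scaling beyond library size. The smallest gaps belonged to the immunoproteasome subunits and their constitutive relatives, such as Psmb8 at +0.86 and Psmb5 at +0.58. Psmb8, Psmb9 (log2 +0.89) and Psmb10 lay below the pan-leukocyte band of +2.82 to +3.91, so their values do not bear out the word restricted. Elmo1 (log2 +1.57), Evl (log2 +1.91) and Cybb (log2 +2.66) also lay below this band. Psmb10 (log2 +0.68, adjusted p = 0.0423) lost its call in 9 of 10 fits that left out 1 library, all but bulk replicate 5 (adjusted p = 0.0577 to 0.121).

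**Figure D5:**
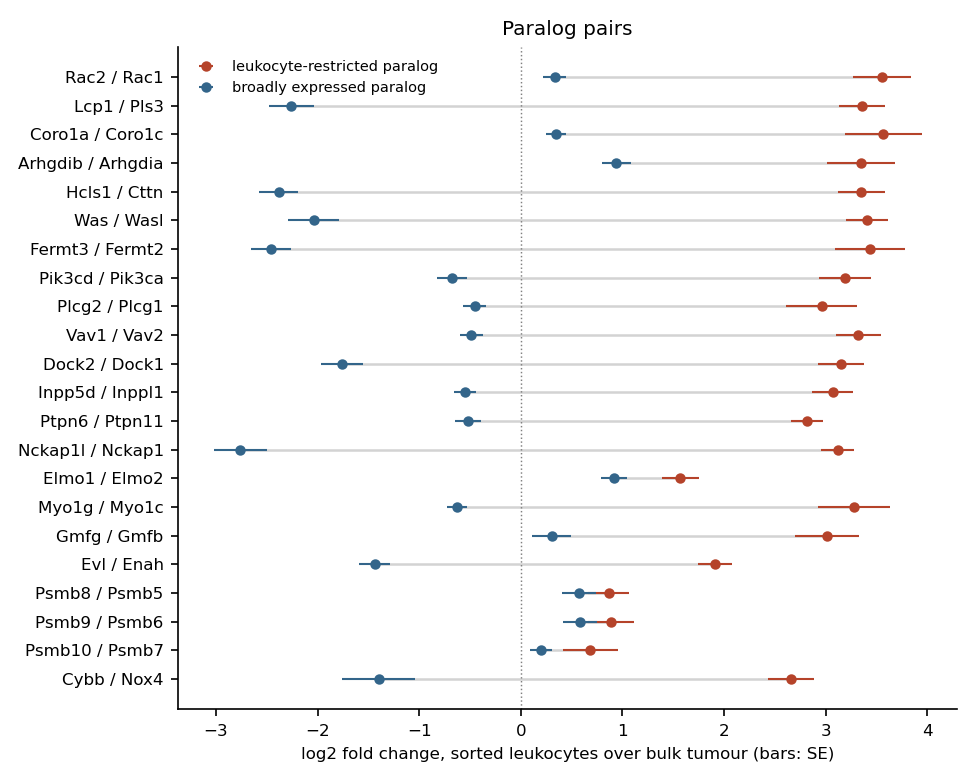
Log2 fold change of sorted leukocytes over bulk tumour (x axis, bars for SE) for 22 paralog pairs (rows), with the member listed as leukocyte-restricted in red and the broadly expressed member in blue. The red point lies right of the blue point in 22 of 22 rows, and the rows of Psmb8, Psmb9 and Psmb10 have the smallest gaps.

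Among the 12 largest decreases were Tnfrsf11b (chromosome 15, 54250619 to 54278484, minus strand, mm10), which encodes the decoy receptor osteoprotegerin and stood at 1.1, 2.19, 2.21, 4.56 and 2.12 CPM in sorted leukocytes and 39.7, 43.2, 20.9, 36.5 and 11.7 CPM in bulk tumour (log2 −3.64, SE 0.44, adjusted p = 2.91e-05). Itga2 (chromosome 13, 114833081 to 114932100, minus strand, mm10), a collagen-binding integrin chain, stood at 5.22, 6.33, 16.6, 11.2 and 9.18 CPM in sorted leukocytes and 124, 147, 60.1, 113 and 49.2 CPM in bulk tumour (log2 −3.35, SE 0.40, adjusted p = 2.42e-05). In both, every sorted library lay below every bulk library, but the choice of these 12 genes required this. Only genes without overlap that reached 20 CPM in bulk tumour were ranked. Predicted genes, pseudogenes and receptor segments were left out. The 12 are therefore not the lowest values of all genes tested, which ran down to −7.22. Thbs2, a matricellular thrombospondin, had a log2 fold change of −3.40, Cybrd1, an iron reductase, of −3.36, Fut2 and B4galnt2, glycosyltransferases of epithelial surfaces, of −3.35 and −3.46, and Tfcp2l1, a factor of epithelial ducts, of −3.34. Atp10b (log2 −3.61), Clca3b (log2 −3.56), Zfhx4 (log2 −3.55) and Zfp618 (log2 −3.39) completed the set with Pigr. Pigr (chromosome 1, 130826684 to 130852249, plus strand, mm10) carries antibodies that hold the J chain across epithelium, and it stood at 29.9, 79.5, 38.2, 126 and 55.3 CPM in sorted leukocytes and 1029.7, 1085, 519, 987 and 161 CPM in bulk tumour (log2 −3.52, adjusted p = 0.000257), against the rise of Jchain. Over the whole table, 273 genes were called below −3.04, the lowest value of the tumour epithelium list.

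The transcripts with the most counts, which are not corrected for gene length, also differed. Apart from mt-Co1, Cd74, Eef1a1 and mt-Cytb, which were in the first 10 of both groups, the first 10 of sorted leukocytes held Ighg1, Igkc, Psap, Apoe, Gm42418 and Actb, and those of bulk tumour Clu, Dmbt1, Spp1, Hsp90ab1, H2-K1 and B2m. Psap, the precursor of lysosomal saposins, had a log2 fold change of +2.69. Spp1, osteopontin, was at 943 to 1951 CPM in sorted leukocytes and 4649.5 to 6309 CPM in bulk tumour (log2 −1.85, adjusted p = 9.41e-06), and Clu, the chaperone clusterin, at 701 to 1908 CPM in sorted leukocytes and 4798 to 7777 CPM in bulk tumour (log2 −2.46, adjusted p = 1.12e-05). Genes of shared machinery moved little. Ribosomal protein genes had a median log2 fold change of +0.57, with 24 of 28 higher, and glycolysis and hypoxia genes a median of +0.34, with 10 of 19 higher and 3 lower. Without scaling beyond library size, the median over all genes moved by −0.46 and the glycolysis and hypoxia median turned to −0.13, so the direction of such small shifts depends on the scaling. Cell cycle genes were lower in 5 of 16 cases, Mki67 among them (log2 −0.55, adjusted p = 0.0166), and higher in 2. These counts moved with single libraries, to 2 lower without any one of sorted replicates 1, 2, 4 and 5, to 9 lower without sorted replicate 3, and to 0 higher without sorted replicate 1 or 3 or any one of bulk replicates 1 to 4.

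Trp53, the tumour suppressor p53 that is altered in KPC lines, was lower (log2 −0.34, adjusted p = 0.0144). The p53 target Cdkn1a, a cell cycle inhibitor, stood at 476, 362, 368, 334 and 467 CPM in sorted leukocytes and 32.1, 30.7, 45.6, 35.2 and 76.1 CPM in bulk tumour (log2 +3.19, SE 0.27, adjusted p = 2.38e-06). Mdm2, another target and the inhibitor of p53, was also higher with no overlap (log2 +1.33, adjusted p = 5.49e-06). Cdkn2a, a tumour suppressor locus, was lower (log2 −1.90, adjusted p = 0.000547).

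The last comparison asked whether the difference between sorted leukocytes and bulk tumour depended on the host, with all 20 libraries in the fit. Of 18145 genes tested for the interaction, 0 were called by edgeR (0%), 2028 had an unadjusted p under 0.05, and DESeq2 called 4. Across genes, which are not independent replicates, the log2 fold change in wild-type hosts and in IL33-/- hosts had a Pearson correlation of 0.931 over 18145 genes. Of the 11308 genes called in wild-type hosts and tested in both, 11113 (98.3%) had the same sign in IL33-/- hosts. Over all 18145 genes, called or not, 89.0% had the same sign in both hosts. The smallest interaction p belonged to Gm15446, a predicted gene, whose log2 fold change of sorted over bulk was −0.09 in IL33-/- hosts and −2.80 in wild-type hosts (adjusted p = 0.0526). Cndp2, a cytosolic dipeptidase, had +1.23 in IL33-/- hosts and +2.44 in wild-type hosts (adjusted p = 0.445), Mid1, a ubiquitin ligase of microtubules, had +0.20 in IL33-/- hosts and −1.48 in wild-type hosts, and Dpysl2, a microtubule-binding protein, had +0.07 in IL33-/- hosts and +0.72 in wild-type hosts. None of these passed. Without bulk replicate 5 of the wild-type hosts, 27 genes were called for the interaction, 8 with a higher and 19 with a lower log2 fold change in IL33-/- hosts, and 1 was called without sorted replicate 5 of the wild-type hosts or sorted replicate 3 of the IL33-/- hosts.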

How the data were processed

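RNA was measured by stranded poly(A) sequencing (TruSeq) of CD45+ cells taken from tumours by magnetic beads and of bulk tumour, in 5 libraries each from wild-type hosts, with the 10 libraries of IL33-/- hosts used only for the host comparison. The authors deposited whole-number read counts per gene, made with HTSeq on mm10 per the submitters' processing notes, which also name Picard and DESeq. The aligner and strand setting were not given in the sources used here. The authors also deposited these counts divided by DESeq size factors (a scaled signal), used here only as an alternative on a log2(value + 1) scale with a mean of at least 10. The count table held 46983 genes and 5 summary lines, none of which entered a total or a test. Reads outside genes were 28.0 to 37.9% in sorted leukocytes and 29.4 to 35.5% in bulk tumour.

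Counts of the 10 wild-type libraries were filtered with filterByExpr, which left 17185 genes, scaled by TMM (factors 0.772 to 0.894 in sorted leukocytes and 1.15 to 1.20 in bulk tumour) and tested with edgeR 4.0.16 in R 4.3.3 by a robust two-sided quasi-likelihood test with no covariate. Fold changes are sorted over bulk, and calls have a Benjamini-Hochberg adjusted p under 0.05 over all genes tested. Changes beyond 2-fold were tested with glmTreat. Host effects were tested as an interaction over 20 libraries and 18145 genes. Levels are TMM-scaled CPM, with a prior count of 2 on the log2 scale. Single summed values were compared by exact permutation over the libraries. Counts of 0 allow up to 3 counts, which covers counting error only. On simulated counts of the sorted and bulk libraries, with 16992 genes in the step and 100 changed at each fold, the test recovered 54% of 2-fold and 88% of 4-fold changes. In the data 65.8% of genes were called, a far larger share than was changed there, so these rates need not hold for this comparison. Promoters came from RefSeq (GRCm38.p6).

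Depth was 55055634 to 69205119 counts in genes in sorted leukocytes and 59793579 to 66778507 in bulk tumour. No 2 replicates agreed within sampling noise (lowest chi-square per gene 18.7 over 20 pairs). Nothing in the labels says that each library came from a separate mouse, and the spread behind each p-value is that among the libraries. Near-identical genes (Hspa1a and Hspa1b, globins, trypsins, MHC class I) can share reads, and overlapping genes are uncertain.

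The groups, the 55 gene lists (699 symbols, 684 tested) and the members were chosen with earlier results of these data known. The genes named were the 12 with the largest change in each direction (at least 20 CPM in the higher group, no overlap, no predicted gene, pseudogene or receptor segment), the 4 most abundant of each list with stated additions, the fixed ligand and receptor pairs, the fixed paralog pairs, the 10 most abundant per group and the 5 with the smallest interaction p. Some genes that met this rule are not reported here. Of 231 genes named, 52 were outside this rule and chosen after their values were seen, as were the CArG and NF-kB motifs. Alternatives were DESeq2 1.42.0, limma 3.58.1 with voom quality weights, RLE and upper quartile scaling, library size only, no filter, at least 5 CPM, all 20 libraries in the fit, the scaled counts, the replicate number as a block, each library left out, bulk replicates 3 and 5 left out, and sorted replicate 3 with bulk replicate 5 left out, the last chosen after seeing the data.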

Additional observations from a re-analysis of the deposited data

Results flagged for a closer look

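In 60 of 584 groups of 5 libraries (10.3%), the highest or lowest library lay far from the other 4. The gap was more than 0.71 of the group's range, which independent, normally distributed values exceed in about 1 in 20 groups. The groups share libraries, and lists stand beside their own members, so the 10.3% cannot be set against that rate. Each flagged group is given with the library's value and the nearest of the other 4, in CPM for genes and mean log2 CPM for lists.

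Bulk replicate 5 stood above the other bulk libraries for Atf3 (28.9, against 17.7), Bhlha15 (4.78, against 1.1), Ccrl2 (10.2, against 7.77), Cldn7 (138, against 37.5), Csf1 (74, against 55.3), Csf2 (4.56, against 1.42), Csf2rb (71.3, against 44.2), Csf3 (6.85, against 2.07), Ctla4 (4.68, against 1.69), Ctrb1 (4702, against 7.2), Cxcl16 (289, against 181), Des (267, against 12.2), Egr1 (54.6, against 29.1), Flt4 (20.9, against 9.42), G0s2 (13, against 3.3), Gata3 (7.51, against 3.14), Grhl2 (9.56, against 2.1), Gzmb (82.2, against 21.4), Ighg1 (451, against 143), Il1b (82.6, against 45.3), Il6 (1.88, against 0.579), Lif (29.96, against 15.5), Mmp12 (258, against 104), Mmp2 (77.8, against 42.4), Mmp9 (88.3, against 42.2) and Pecam1 (48.3, against 25.1). It stood below them for Plin4 (1.7, against 5.63). Of the lists it stood above the others for pericyte and smooth muscle genes (3.9, against 2.57), blood endothelium genes (3.8, against 2.93), lymphatic endothelium genes (2.997, against 1.45), acinar genes (8.68, against 0.166), skeletal muscle genes (7.43, against −1.7) and cell cycle genes (6.32, against 5.85).

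Bulk replicate 3 was high for C3 (2148, against 1119.8), Cpa3 (6.07, against 2.13) and Il1rl1 (9.37, against 2.35) and low for Wwtr1 (46.5, against 56). Of the lists it was high for mesothelium genes (3.03, against 1.85) and erythroid genes (6.36, against 4.41) and low for adipocyte genes (0.433, against 1.63). Bulk replicate 2 was high for Il33 (67.7, against 56.5), and bulk replicate 4 was low for mitochondrially encoded genes (6.73, against 7.03).

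Sorted replicate 3 was high for Cfp (806, against 589), Ctss (5425, against 3819), Cxcl12 (20.3, against 8.22), Cybb (1114, against 622), Eef1a1 (12384, against 9928), Irf4 (152, against 67.2), Lyz2 (8599.8, against 6863), Mmp12 (1225, against 669.7), Pf4 (127, against 96.7) and Rac1 (618, against 461) and low for Cdh5 (4.32, against 7.43). It was also high for cell cycle genes (6.19, against 5.57) and cathepsin and lysosome genes (10.3, against 9.98). It was the deepest sorted library, at 69205119 counts in genes against 58375021 in the next, and had 4.51% of reads not aligned, against 9.54% in the next lowest. Sorted replicate 1 was high for Ccl2 (119, against 71), Epx (2.27, against 0.668) and Lyve1 (54.8, against 17).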

How the results depend on the processing

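Direction and side of the threshold were kept in 4901 of the re-computed values of named genes. With the direction kept, 72 lost and 40 gained a call. Another 31 took the opposite sign, whether or not their call changed. Of the list medians, 1117 moved by less than 1 SD between replicates and 66 by more. Leaving out each library in turn gave 4873 to 5721 genes called higher and 5615 to 6374 called lower, 2360 to 2876 higher and 2392 to 2819 lower beyond 2-fold, a difference in genes detected of −475 to −185, and a difference in the share of the 100 most abundant genes of 9.95 to 11.1 points. DESeq2 called 5688 higher and 5980 lower, limma-voom with quality weights 6691 and 7277, and the authors' scaled counts in limma 5655 and 5791. Without scaling beyond library size, 3310 genes were higher and 9040 lower, with 4044 lower beyond 2-fold, the median over all genes moved by −0.46, and 26.8% of calls were higher, against 46.9% with TMM scaling. B2m, Csf2, Cxcl9, Dpysl2, Gata3, Gzmb, Il1rl1, Mmp2, Psmb5, Psmb8, Psmb9 and Psmb10 were then not called. Hspa8, Lifr and Rac1 also lost their calls, with the opposite sign. Areg, Eef1a1, Hsph1, Lif and Vim were called lower. With at least 5 CPM on average, 11444 genes were left to test, and 1556 were higher and 1581 lower beyond 2-fold. Counting genes from 10 counts, the difference in genes detected was −519 (exact permutation p = 0.0476). The interaction with host had 1 gene under RLE normalization, 4 under DESeq2 and 0 to 27 with single libraries left out. With the replicate number as a block, 4954 genes were higher and 5519 lower, and 10313 of 11309 calls were kept. The values showed no pairing by number: same-numbered sorted and bulk libraries had deviations from their group means correlated at −0.176 to 0.208, and 1 of 5 correlated best with its own number. A sorted fraction and a whole tumour need not deviate together, so this cannot tell whether same-numbered libraries share a tumour. The block was run with no other change. Cldn7, Des (log2 −1.89, adjusted p = 0.124), Lifr and Rac1 then lost their calls, and Ctrb1, Cxcl10 and H2-K1 gained one. Of the other calls, Csf2, Il1rl1, Lifr and Psmb10 were lost with upper quartile scaling and, with Gzmb, without a filter, Il1rl1 and Psmb10 with at least 5 CPM, Il1rl1 without sorted replicate 3 and bulk replicate 5, Cldn7 and Des without bulk replicates 3 and 5, and Des under limma-voom and from the scaled counts. Calls were gained by Runx1 under DESeq2, RLE, all 20 libraries, the scaled counts and at least 5 CPM. Cxcl10 and Lcn2 gained one under DESeq2, Cxcl10 with all 20 libraries, and Ctrb1 and Cxcl10 from the scaled counts. Under limma-voom, Ctrb1, Cxcl10, Cxcl12, Epx, Fscn1, H2-K1, Hba-a1, Lcn2 and Vim gained one. Without bulk replicates 3 and 5, Ctrb1, Cxcl10, Cxcl12, Epx, Fscn1, H2-K1 and Lcn2 did. Without sorted replicate 3 and bulk replicate 5, Ctrb1, Cxcl10, H2-K1 and Lcn2 did.

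Values that took the opposite sign were as follows. Without scaling beyond library size, these were the medians of lymphatic endothelium genes (−0.37), heat shock genes (−0.36), glycolysis and hypoxia genes (−0.13), nuclear respiratory chain genes (−0.040), complement genes (−0.38) and oxidase genes (−0.18) and Bcl6 (−0.29), C3 (−0.36), Cxcl12 (−0.12), Eef1a1 (−0.29), Fscn1 (−0.32), H2-K1 (−0.16), Hsp90aa1 (−0.32), Hspa8 (−0.052), Lifr (−0.17), Mmp14 (−0.26), Rac1 (−0.14), Runx1 (−0.22) and Tcf7 (−0.27). Under limma-voom with quality weights, these were the medians of islet genes (+4.24), skeletal muscle genes (+2.20), erythroid genes (+0.35) and complement genes (−0.11) and Ctrb1 (+7.11) and Tcf7 (−0.044). From the authors' scaled counts, these were the median of islet genes (+0.96) and Ctrb1 (+5.56). With the replicate block, these were the medians of islet genes (+0.97), skeletal muscle genes (+0.77) and erythroid genes (+0.055) and Ctrb1 (+6.84). Without bulk replicates 3 and 5 together, these were the medians of islet genes (+4.79), skeletal muscle genes (+1.98) and erythroid genes (+0.67) and Ctrb1 (+8.15). Without sorted replicate 3 and bulk replicate 5 together, these were the medians of skeletal muscle genes (+2.34) and complement genes (−0.12) and Areg (+0.076), C3 (−0.091), Ctrb1 (+7.38) and Lif (+0.077). With single libraries left out, medians ran from −0.19 to +1.36 for lymphatic endothelium (+1.36 without bulk replicate 5), −5.86 to +2.13 for skeletal muscle (+2.13 without bulk replicate 5), −0.57 to +0.63 for erythroid (+0.63 without bulk replicate 3) and −0.095 to +0.16 for complement genes (−0.095 without sorted replicate 3). In the same way, log2 fold changes ran from −0.20 to +0.020 for Areg, −0.085 to +0.43 for C3, −0.50 to +7.70 for Ctrb1 (+7.70 without bulk replicate 5), −0.067 to +0.76 for Cxcl12 and −0.059 to +0.41 for Fscn1. The cause of these reversals was not tested. The floor of 3 counts limits genes such as Il5, Epx and Il13, and the sign of a value nearer to 0 than the shift above depends on the scaling.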

Other observations

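Mitochondrially encoded genes, which carry subunits of the respiratory chain, were higher in 12 of 13 cases, with a median log2 fold change of +1.45. mt-Co1, an oxidase subunit, stood at 16311 to 35865 CPM in sorted leukocytes and 7369 to 9691 CPM in bulk tumour (log2 +1.45, edgeR adjusted p = 6.52e-05), and mt-Nd4 had a log2 fold change of +1.53. These genes took 2.58 to 6.03% of counts in sorted leukocytes and 1.73 to 2.42% in bulk tumour, and without bulk replicates 3 and 5 the count was 7 of 13. Nuclear genes of the same chain were higher in 11 and lower in 1 of 18 cases. Their median of +0.43 turned to −0.040 without scaling beyond library size. The lower one was Ndufs1, a subunit of complex I, at 69.5 to 80.1 CPM in sorted leukocytes and 124 to 214 CPM in bulk tumour (log2 −1.14, adjusted p = 2.73e-05).

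Minor cell types of the tumour gave shorter lists. Against these counts, 30.9% of all genes tested were higher and 34.9% lower. Pericyte and smooth muscle genes were lower in 5 of 7 cases, among them Des, desmin, which muscle also makes (log2 −4.44, adjusted p = 0.0176, and −1.21 without bulk replicate 5). The Des call was lost without bulk replicates 3 and 5 (log2 −0.60, adjusted p = 0.0754), under limma-voom with quality weights (log2 −0.96, adjusted p = 0.096) and from the authors' scaled counts in limma (log2 −2.13, adjusted p = 0.0859). Without bulk replicates 3 and 5 the count for the list was 3 of 7. The lymphatic genes were divided: Lyve1, which some tissue macrophages also carry, was higher (log2 +2.47, adjusted p = 0.00121, and +1.80 without sorted replicate 1), and Flt4, the VEGF-C receptor of lymphatic vessels, was lower (log2 −1.24, adjusted p = 0.00313). Without bulk replicate 5, 4 of 5 lymphatic genes were higher. Platelet genes were higher in 2 of 6 cases, and in 4 of 6 without bulk replicate 5. Pf4, platelet factor 4, stood at 86.3 to 127 CPM in sorted leukocytes and 6.83 to 27.8 CPM in bulk tumour (log2 +2.92, adjusted p = 4.07e-05), and Itga2b, the platelet integrin chain, had a log2 fold change of +2.09. Among the Schwann cell genes, 3 lower and 1 higher of 4, was Ncam1, an adhesion molecule of nerve (log2 −2.31, adjusted p = 2.33e-06). Of the adipocyte genes, the lipid droplet genes Cidec (log2 −2.21) and Plin4 (log2 −2.63) were lower. The 6 erythroid genes had summed levels of 44.9 to 943 CPM in sorted leukocytes and 289 to 1142 CPM in bulk tumour, with sorted replicate 3 lowest of the 10 libraries. Hba-a1, a globin chain, had a log2 fold change of +0.68 and did not pass the threshold (adjusted p = 0.405).

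Xist, the RNA that coats the inactive X chromosome, stood at 75.3 to 174 CPM in sorted leukocytes and 258 to 455 CPM in bulk tumour (log2 −1.64, adjusted p = 0.000134). The 4 Y-linked genes of the same list had 0 counts in all 10 libraries, which allows up to 3 counts in each.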
